A study of Mus musculus with 6 samples.

Results

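The genes described here encode 10 enzymes of amino acid and one-carbon synthesis, chosen by name from the deposited table: Phgdh, Psat1, Psph, Shmt2, Mthfd2, Mthfd1l, Aldh1l2, Aldh18a1, Pycr1 and Asns. Each was found as 1 row of its own, so 10 of the 37757 rows in the authors' deposited table are described, and all 10 were among the 14748 rows that the authors tested. Kidney epithelial cells had been isolated from C57/Bl6J mice aged 8 weeks, and the cells of both groups carry the genotype Bim-/- Bmf-/-, which removes 2 activators of apoptosis. One group stayed attached and the other was held in suspension for 4 h, with 3 mRNA sequencing libraries in each. No cells with intact Bim and Bmf are among the samples, so values apply to the double-deficient cells. The labels do not say whether the libraries came from separate cultures or animals, and the p-values may therefore measure technical spread.

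Serine is made from a glycolytic intermediate by the successive action of Phgdh, Psat1 and Psph. In mitochondria Shmt2 passes a carbon of serine to folate, and Mthfd2, Mthfd1l and Aldh1l2 carry that carbon to formate or carbon dioxide, which supports purine and thymidylate synthesis and the redox state of NADPH. Aldh18a1 and Pycr1 make proline from glutamate, and Asns makes asparagine from aspartate and glutamine. Many of these genes are known targets of ATF4, a transcription factor translated when amino acids are scarce or the endoplasmic reticulum is stressed.

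Of the 10 transcripts 8 fell with the authors' q below 0.05, the threshold used here, and none was called higher. All 10 had a lower value in suspension as deposited, but the log2 fold change of Aldh1l2, -0.02, became 0.085 once rescaled to the median of rows with at least 1 FPKM. That median was itself shifted, by -0.11 on the log2 scale. Expression is given as FPKM, fragments scaled to transcript length and library size, with 1 value for each condition. Of all tested rows in the authors' deposited table, 26.3% were called lower, 24.7% higher and 51.0% in either direction. The submitters' processing notes name Cuffdiff among the tools without giving its role, and by the deposited p-values 0 of the 10 were higher at an unadjusted p below 0.05. The median log2 fold change (suspended over attached) of the 10 was -0.76, beside -0.03 over all tested rows in the authors' deposited table. A fall of at least 2-fold with q below 0.05 was listed for 4 of the 10 enzymes, against 7.12% of tested rows in the authors' deposited table. The depth behind these pooled values is unknown and single libraries were not analysed here, which leaves every level without a replicate spread. All 8 enzymes called lower have q = 0.000185, the lowest value the authors' deposited table contains, which 4278 rows at the lowest p share. Any called gene given below with its own values and no q has this value.

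**Figure D1:**
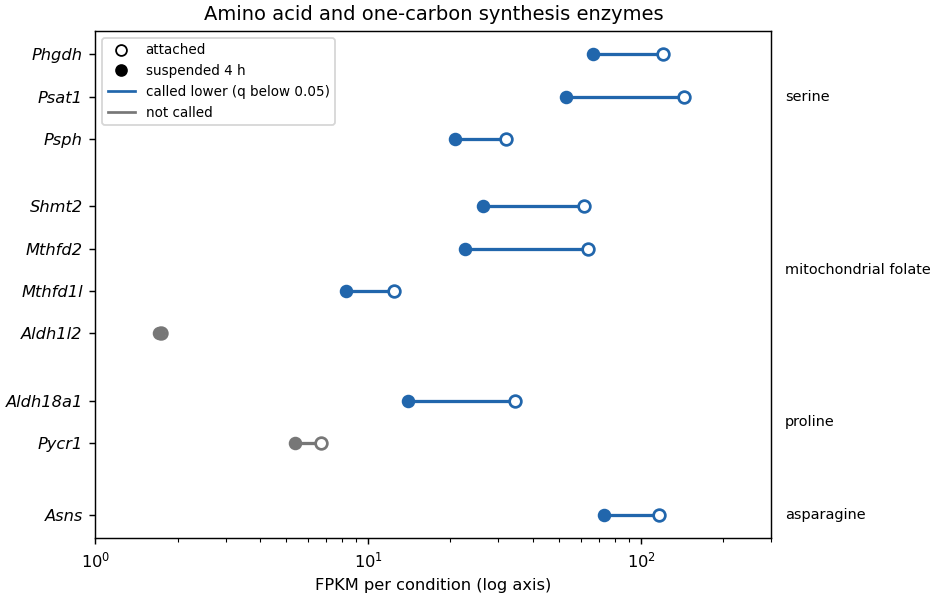
FPKM of each enzyme on a log axis in attached (open circles) and suspended (filled circles) cells, 1 value for each condition of the authors' deposited table, with lines coloured by call. The filled circle lies to the left in all 10, and Aldh1l2, at 1.74 and 1.71 FPKM, shows almost no gap and changes side once rescaled (log2 fold change 0.085).

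The serine pathway was strongly expressed in attached cells and all 3 of its enzymes fell. Phgdh, the dehydrogenase of the first step (chromosome 3, positions 98313170 to 98339990, mm10), went from 120.5 to 66.8 FPKM per the authors' deposited table, 1.81-fold lower (log2 fold change -0.85). Psat1, the aminotransferase of the second step (chromosome 19, positions 15904678 to 15947337), was listed at 143 FPKM attached and 52.9 suspended in the authors' deposited table. That is 2.7-fold lower (log2 fold change -1.44), the largest of the 3 falls in this pathway. Psph, the phosphatase that releases serine (chromosome 5, positions 129765558 to 129787252), went from 31.9 to 20.8 FPKM according to the authors' deposited table, 1.53-fold lower (log2 fold change -0.62). Per transcript length, the authors' deposited table puts Psat1 at 1.19 times the level of Phgdh in attached cells and at 0.793 times in suspended cells. A stretch of 255 bases at the 5′ end of Psph overlaps the annotated gene Cct6a on the opposite strand, which the authors' deposited table lists at 191 and 163 FPKM, and the sources used here do not say whether reads were counted by strand.

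Of the 4 mitochondrial folate enzymes 3 fell, Mthfd2 and Shmt2 by more than 2-fold, and Aldh1l2 was not called. Mthfd2, a dehydrogenase and cyclohydrolase (chromosome 6, positions 83305691 to 83317606), went from 64.0 to 22.6 FPKM per the authors' deposited table, 2.83-fold lower (log2 fold change -1.50). This was the lowest log2 fold change of the 10, and 3.69% of all tested rows in the authors' deposited table had a lower one. Shmt2, the mitochondrial serine hydroxymethyltransferase (chromosome 10, positions 127514939 to 127522444), went from 61.6 to 26.4 FPKM according to the authors' deposited table, 2.33-fold lower (log2 fold change -1.22). Its row also spans Ndufa4l2 on the opposite strand, a gene whose own row stood at 0.0140 FPKM attached and at 0 suspended in the authors' deposited table.

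Mthfd1l, which releases formate (chromosome 10, positions 3973118 to 4167081), was less abundant, at 12.4 FPKM attached and 8.28 suspended in the authors' deposited table, 1.5-fold lower (log2 fold change -0.58). Aldh1l2, which oxidises the formyl group and yields NADPH (chromosome 10, positions 83487450 to 83534140), was the least abundant of the 10, at 1.74 FPKM attached and 1.71 suspended in the authors' deposited table. It was not called (log2 fold change -0.02, q = 0.931). Treating the deposited p as that of a normal estimate gives Aldh1l2 an approximate 95% interval of -0.38 to 0.33 for the log2 fold change. A fall the size of that of Mthfd2 lies outside it. The deposited test score of Aldh1l2, -0.06, is smaller in size than a normal estimate with that p would have. This interval, like the others of its kind below, may therefore be too narrow. The row of Aldh1l2 shares 1056 bases with D10Wsu102e on the opposite strand, listed at 18.5 and 13.1 FPKM per the authors' deposited table.

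In proline synthesis the first enzyme fell and the last was not called. Aldh18a1, which commits glutamate to proline and ornithine (chromosome 19, positions 40550257 to 40588463), went from 34.6 to 13.9 FPKM according to the authors' deposited table, 2.48-fold lower (log2 fold change -1.31). Pycr1, which reduces the pathway's last intermediate to proline in mitochondria (chromosome 11, positions 120635712 to 120643769), was listed at 6.74 FPKM attached and 5.37 suspended in the authors' deposited table (log2 fold change -0.33, q = 0.20). The approximate 95% interval for Pycr1, from the deposited p, runs from -0.74 to 0.09, an interval that holds falls as large as that of Asns (-0.67). The level of Aldh18a1 per length was 5.14 times that of Pycr1 in attached and 2.59 times in suspended cells, per the authors' deposited table.

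Asns, asparagine synthetase (chromosome 6, positions 7675169 to 7693254), went from 116 to 73.2 FPKM per the authors' deposited table, 1.59-fold lower (log2 fold change -0.67). Its fall was smaller than that of Psat1, Mthfd2, Shmt2, Aldh18a1 and Phgdh, and the differences between these falls were not tested. Asns was the third most abundant of the 10 transcripts in attached cells and the most abundant in suspended cells, per the authors' deposited table. Psat1 took the reverse course, from rank 1 to rank 3, with Phgdh at rank 2 in both conditions of the authors' deposited table. Mthfd2 and Shmt2 exchanged ranks 4 and 5, Aldh18a1 and Psph ranks 6 and 7, and Mthfd1l, Pycr1 and Aldh1l2 kept ranks 8 to 10 in the authors' deposited table. Without values per library, neighbours in this order cannot be separated by their spread.

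Enzymes of both the cytosol and the mitochondrion fell. The 4 cytosolic enzymes had log2 fold changes of -1.44 to -0.62 with a median of -0.76, and 4 of 4 were called in the authors' deposited table. The 6 mitochondrial enzymes ranged from -1.50 to -0.02 with a median of -0.90, and 4 of 6 were called in the authors' deposited table. The uncalled enzymes Pycr1 and Aldh1l2 are also the least abundant, with 42.1% and 23.9% of tested rows below them in attached cells in the authors' deposited table. At the other end, 96.2% of tested rows lay below Psat1 and 94.9% below Asns in attached cells in the authors' deposited table.

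**Figure D2:**
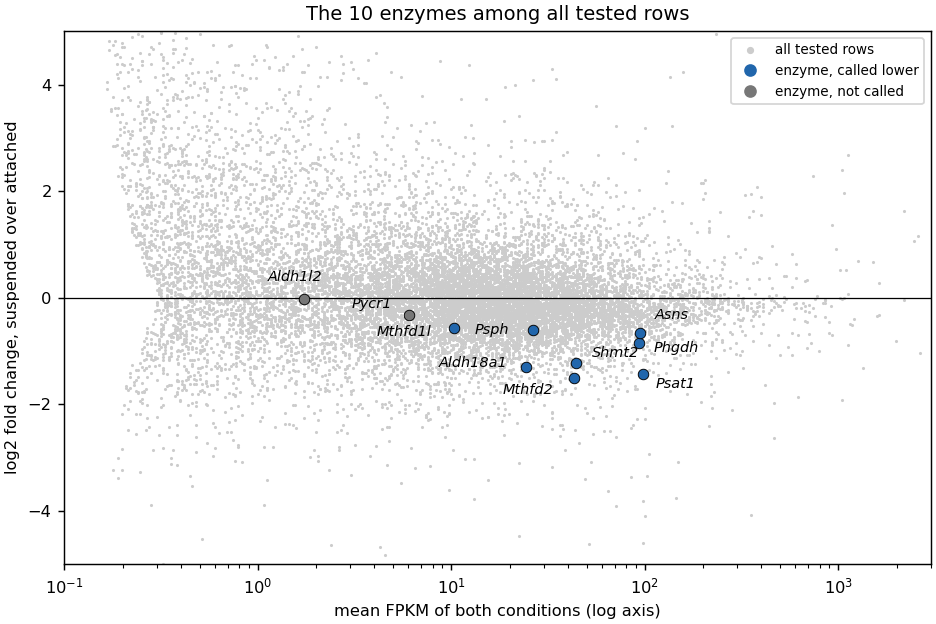
Log2 fold change (suspended over attached) against the mean FPKM of both conditions (log axis) in the authors' deposited table, for tested rows above 0 in both conditions (grey) and the 10 enzymes (coloured by call). All 10 lie below the zero line, Mthfd2 lowest at -1.50 and Aldh1l2 closest to it at -0.02 (0.085 once rescaled); 131 rows outside the axes are not drawn.

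The sequence before the gene starts was examined for the C/EBP-ATF response element, the DNA element through which ATF4 is known to act, searched as TGATGNAAN on both strands. RefSeq promoter windows (GRCm38.p6, 250 bases before to 50 after the start) were matched for 9 of the 10 genes, and Psat1 had 2 windows. The element was found in the windows of 2 of the 9 genes, Asns and Pycr1, and in 3.95% of all 32851 windows. The narrower form TGATGCAAN was found in Pycr1 alone of the 9 and in 0.889% of all windows. The sites are shown with 30 bases each because they are the only matches among these genes, and the element is in capitals, 5′ to 3′ on the minus strand, which is the strand of both genes.

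Asns, chr6:7693213-7693242 (minus strand): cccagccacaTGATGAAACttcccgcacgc
Pycr1, chr11:120643832-120643861 (minus strand): gccctgtgtaTGATGCAATgcacaaggctc

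The element of Asns begins 23 bases before the RefSeq start and lies inside an exon of a longer GENCODE M21 transcript. That of Pycr1 begins 103 bases before the start, outside annotated exons. Of these genes Asns was called lower, and Pycr1, which holds the narrower form, was not called. Whether the element bears on these calls was not tested. The sequences before RefSeq starts of Mthfd2 and Psat1 are shown because these genes fell most, and neither holds the element in this window. They run up to the RefSeq start or to the first annotated exon. Both are read on the minus strand, the strand of both genes, with no capitals because no match was found. GENCODE M21 has these genes begin further upstream, at position 83325908 for Mthfd2 and 15947337 for Psat1. Sequence before those starts was not searched, and the windows shown lie inside the longer annotated genes.

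Mthfd2, chr6:83317607-83317854 (minus strand): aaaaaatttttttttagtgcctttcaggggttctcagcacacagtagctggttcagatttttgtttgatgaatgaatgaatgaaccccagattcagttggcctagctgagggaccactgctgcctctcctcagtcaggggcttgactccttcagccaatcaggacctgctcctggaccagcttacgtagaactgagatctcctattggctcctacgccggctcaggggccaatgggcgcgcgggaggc
Psat1, chr19:15925060-15925309 (minus strand): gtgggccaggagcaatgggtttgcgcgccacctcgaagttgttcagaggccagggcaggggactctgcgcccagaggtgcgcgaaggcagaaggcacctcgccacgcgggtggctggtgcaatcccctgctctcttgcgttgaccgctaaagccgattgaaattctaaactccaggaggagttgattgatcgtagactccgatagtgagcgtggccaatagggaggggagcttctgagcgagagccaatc

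Absence of these letters from the window says nothing of sites elsewhere in a gene. The 10 windows of these genes had a GC content between 42.7% and 66.7% with a median of 57%, beside a median of 52.7% over all windows. A match is a description of sequence, and no binding was measured in these samples.

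Several of the 10 enzymes have a close relative that catalyses the same step in another place or form, and these relatives did not all move with them. Shmt1, the cytosolic counterpart of Shmt2, was listed at 10.1 FPKM attached and 12.5 suspended in the authors' deposited table and was not called (log2 fold change 0.31, q = 0.432). Shmt2 therefore stood at 6.09 times the level of Shmt1 in attached cells and 2.11 times in suspended cells, per length, in the authors' deposited table. The row of Shmt1 also spans Smcr8 on the opposite strand, which went from 11.5 to 36.4 FPKM per the authors' deposited table, so the Shmt1 value is uncertain. Its approximate 95% interval, from the deposited p, is -0.30 to 0.92.

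Mthfd1, the cytosolic folate enzyme with 3 activities, went from 26.9 to 11.3 FPKM according to the authors' deposited table (log2 fold change -1.25, q = 0.000185). Its mitochondrial relative Mthfd1l had the smaller log2 fold change of -0.58, and the level of Mthfd1 went from 2.17 to 1.36 times that of Mthfd1l in the authors' deposited table. Mthfd2l, the isoenzyme of Mthfd2, went from 8.81 to 4.24 FPKM per the authors' deposited table (log2 fold change -1.06, q = 0.000185). Both Mthfd2 and Mthfd2l thus fell, with Mthfd2 the more abundant in both conditions.

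Aldh1l1, the cytosolic relative of Aldh1l2, was near the floor at 0.133 FPKM attached and 0.239 suspended and was not tested in the authors' deposited table. Pycr3, a relative of Pycr1 that also completes proline synthesis and is listed under its other symbol Pycrl, went from 23.5 to 9.49 FPKM per the authors' deposited table (log2 fold change -1.31, q = 0.000185). Per length, the authors' deposited table puts Pycr3 at 3.49 times the level of Pycr1 attached and at 1.77 times suspended. Differences between the fold changes of related enzymes were not tested.

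**Figure D3:**
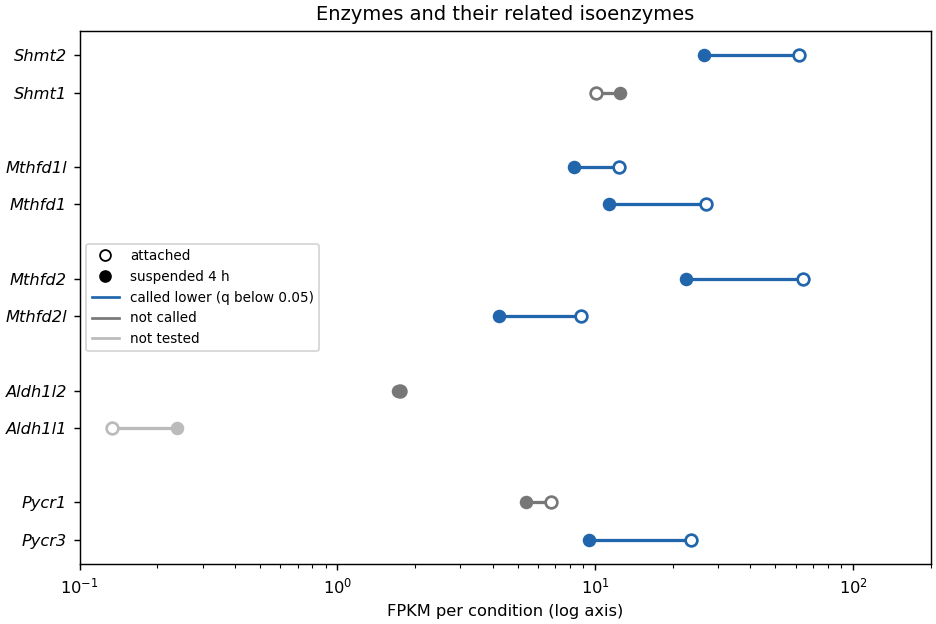
FPKM on a log axis of enzymes grouped with their relatives, attached (open circles) and suspended (filled circles), 1 value for each condition of the authors' deposited table, coloured by call. Shmt2 moves left to 26.4 FPKM while Shmt1 lies at 10.1 and 12.5, and of the proline enzymes drawn at the bottom Pycr3 was called lower and Pycr1 was not called.

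The pathways around the 10 enzymes were covered by 10 further lists with 119 genes, of which 116 were matched and 106 tested. Of the 106, 52 were called lower and 20 higher in the authors' deposited table, and their median log2 fold change was -0.29. The background for this and for the list counts below is 26.3% lower and 24.7% higher over all tested rows. Of 12 tested folate genes, 7 fell and 0 rose, with a median log2 fold change of -0.86 according to the authors' deposited table. None of those 12 was higher at an unadjusted p below 0.05. Mtrr, which reactivates methionine synthase, went from 7.28 to 2.85 FPKM, and Fpgs, which retains folate in cells by adding glutamates, from 16.7 to 7.19 FPKM according to the authors' deposited table. Slc25a32, which carries folate into mitochondria, went from 6.36 to 3.07 FPKM, and the folate receptor Folr1 from 16.8 to 8.41 FPKM per the authors' deposited table. Lower calls thus included genes of folate import and retention besides enzymes. The carriers Slc46a1 (log2 fold change -0.21, q = 0.222) and Slc19a1 (-0.78, q = 0.543) were not called.

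Purine synthesis, which consumes glycine and formyl groups, had 8 of 12 tested genes lower and 1 higher, with a median log2 fold change of -0.38 according to the authors' deposited table. Gart, which uses both glycine and formyl folate, went from 48.6 to 19.2 FPKM, and Ppat, the committing enzyme, from 17.8 to 9.09 FPKM (q = 0.00697) according to the authors' deposited table. The rows of Ppat and Paics list the same interval (chromosome 5, positions 76913249 to 76967509). Impdh2, of guanine nucleotide synthesis, went from 18.5 to 9.39 FPKM, and Pfas from 5.16 to 3.31 FPKM (q = 0.00171) per the authors' deposited table. Methionine cycle, transsulfuration and polyamine genes had 8 of 11 tested members lower and 1 higher, with a median of -0.72 according to the authors' deposited table. Srm, spermidine synthase, went from 25.6 to 5.36 FPKM, and Mat2a, which makes S-adenosylmethionine, from 107 to 30.1 FPKM according to the authors' deposited table. Cth, which makes cysteine from cystathionine, went from 12.7 to 4.11 FPKM, and Mtap, of methionine salvage, from 35.8 to 17.6 FPKM per the authors' deposited table. These were larger falls than that of Asns, although the differences were not tested.

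Of 11 tested genes that use or break down serine and glycine, 2 were called lower and 4 higher in the authors' deposited table. Beside 26.3% lower and 24.7% higher over all tested rows, calls in both directions do not set this list apart. Its median log2 fold change was -0.08, which became 0.027 once rescaled. Sptlc2, a subunit of the enzyme that joins serine to a fatty acid in sphingolipid synthesis, went from 47.9 to 68.1 FPKM (q = 0.0211) according to the authors' deposited table. Alas1, which uses glycine for haem, went from 24.5 to 30.8 FPKM (q = 0.0135) per the authors' deposited table. Gcsh, of the glycine cleavage system, went from 40.8 to 27.6 FPKM, and Ptdss1, which makes phosphatidylserine, from 32.8 to 22.5 FPKM according to the authors' deposited table. All 4 of the higher calls in this list were lost at q below 0.01.

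Aspartate and glutamate enzymes, which supply the substrates of Asns, Psat1 and Aldh18a1, had 6 of 11 tested lower and 0 higher with a median of -0.53 according to the authors' deposited table. At an unadjusted p below 0.05, 2 of the 11 were higher. Bcat1, a branched-chain aminotransferase, went from 38.2 to 10.8 FPKM per the authors' deposited table. Bcat2 went from 20.4 to 9.18 FPKM, and Gpt2, the mitochondrial alanine aminotransferase, from 17.1 to 7.82 FPKM according to the authors' deposited table. Of 8 tested genes of proline breakdown, hydroxylation and arginine, 2 were lower and 2 higher, with a median of -0.14 according to the authors' deposited table. Over all tested rows 26.3% were called lower and 24.7% higher, so these counts lie near the background. Oat, which links ornithine to the proline pathway, went from 119 to 50.9 FPKM (q = 0.00143), and P4ha1, a collagen prolyl hydroxylase subunit, from 30.3 to 14.6 FPKM per the authors' deposited table. The Oat row spans a wide interval (chromosome 7, positions 130162451 to 133124354), and its overlaps were not checked. Ass1, which joins citrulline to aspartate, rose from 2.45 to 13.4 FPKM, and P4ha2 from 6.0 to 8.28 FPKM (q = 0.0133) according to the authors' deposited table.

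The tRNA synthetases for asparagine, serine, glycine, proline, methionine and cysteine were lower in 6 of 6 cases with a median of -0.52 according to the authors' deposited table. Mars went from 72.6 to 27.7 FPKM, Gars from 138 to 69.9, Cars from 50.4 to 31.5 and Nars from 193 to 149 FPKM (q = 0.000982 for Nars) per the authors' deposited table. The rows of Mars and Ddit3 list the same interval (chromosome 10, positions 127289696 to 127311786). Ddit3 rose from 21.6 to 93.4 FPKM, so the Mars value is uncertain. In the authors' deposited table Sars had a log2 fold change of -0.30 (q = 0.0278) and Eprs one of -0.28 (q = 0.0175). Of 12 tested amino acid transporters, 5 rose, 3 fell and 4 were not called, with a median of 0.34 according to the authors' deposited table. The shares over all tested rows were 24.7% higher and 26.3% lower. Slc7a11, which imports cystine, went from 3.80 to 65.2 FPKM, and Slc1a4, which carries serine and other small neutral amino acids, from 19.9 to 89.7 FPKM according to the authors' deposited table. The lysosomal and plasma membrane carrier Slc36a1 rose from 4.06 to 8.94 FPKM, while Slc7a1, a carrier of arginine and lysine, went from 59.4 to 18.1 FPKM per the authors' deposited table. Thus Slc1a4 rose by a log2 of 2.17 in the same comparison in which the 3 enzymes that make serine fell.

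Genes of the integrated stress response, to which ATF4 belongs, did not move in 1 direction. This list mixes regulators such as Atf4 with genes such as Chac1 and Trib3. Of 18 tested genes 7 fell and 7 rose, with a median log2 fold change of 0.18 according to the authors' deposited table. All tested rows also split, with 26.3% lower and 24.7% higher. Atf4 itself had a log2 fold change of -0.48 (q = 0.000185) in the authors' deposited table, and its transcript level does not report its translation. Cebpb rose from 28.0 to 91.2 FPKM and Sesn2 from 16.1 to 26.4, while Chac1 fell from 37.9 to 20.9 FPKM according to the authors' deposited table. Trib3, at 12.0 and 14.7 FPKM (q = 0.0625), was not called in the authors' deposited table. Atf3, Ddit3 and Ppp1r15a had log2 fold changes of 2.94, 2.11 and 2.12, and Stc2 of -2.04, in the authors' deposited table. The row of Ddit3 lists the same interval as that of Mars. The rows of Cebpb (chromosome 2, positions 167553314 to 167690418) and Ppp1r15a (chromosome 7, positions 45472956 to 45526268) also span wide intervals. Their overlaps were not checked, so these 2 values are uncertain.

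**Figure D4:**
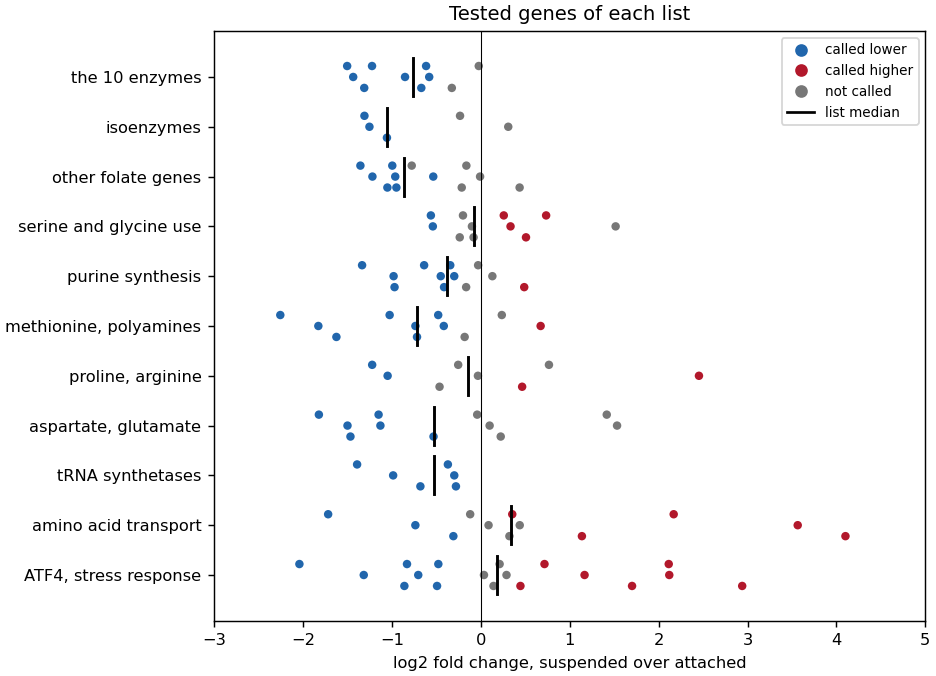
Log2 fold change (suspended over attached) of each tested gene in the 10 enzymes and the surrounding lists, from the authors' deposited table, coloured by call; black bars mark list medians. The medians of the 10 enzymes (-0.76), folate genes (-0.86) and methionine genes (-0.72) lie to the left of zero, and that of the transporters (0.34) to the right.

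The labelled cell type was checked against its markers. All 8 kidney epithelial markers were present at 95.4 to 773 FPKM attached and 30.9 to 752 suspended in the authors' deposited table, with 4 called lower, 3 higher and Epcam (q = 0.761) not called. In the authors' deposited table the largest changes were those of Pax2, from 150 to 30.9 FPKM, Pax8, from 104 to 37.1 FPKM, and Cdh1, from 95.4 to 201 FPKM. Of 6 markers of mature proximal tubule, Slc34a1, Slc5a2 and Slc22a6 were listed at 0 in both conditions in the authors' deposited table. In the authors' deposited table Aqp1 fell from 79.1 to 11.8 FPKM (log2 fold change -2.74), a lower fold change than that of any of the 10 enzymes, and Cubn rose from 0.491 to 0.904 FPKM (q = 0.000518). Markers of other cell types summed to 25.1 FPKM attached and 47.6 suspended for leukocytes (6 genes), 0.225 and 1.97 for fibroblasts (6 genes), 1.6 and 7.95 for podocytes (4 genes) and 0.353 and 0.298 for endothelium (5 genes) per the authors' deposited table. Called higher among them in the authors' deposited table were Ptprc (1.42 to 12.4 FPKM), Cd68 (23.4 to 34.9), Pdgfra (0.155 to 1.81) and Podxl (1.6 to 7.87). Cd68 made up most of the leukocyte sum, so that sum hides the 8.73-fold rise of Ptprc. Lyz2, Itgam, Cd3e, Pecam1, Col1a1 and Nphs1 stayed below 0.2 FPKM in both conditions. Of 10 tested mitochondrial rows, a sign of RNA quality, 10 had higher FPKM in suspension and 3 were called in the authors' deposited table. The part of these markers and mitochondrial rows in the falls of the 10 enzymes was not tested. In such bulk libraries, fewer cells that express a gene and less RNA in each cell cannot be told apart.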

How the data were processed

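RNA of cultured mouse kidney epithelial cells was sequenced as mRNA libraries on a HiSeq instrument, 3 attached and 3 suspended for 4 h, per the labels' protocols. TopHat, Bowtie, Cufflinks 1.0.3 and Cuffdiff with mm10 appear in the submitters' processing notes, with settings, annotation and strandedness not given in the sources used here. For each gene and condition the authors deposited 1 FPKM, and per the file headers also a log2 fold change, a test score, a p-value and a q-value. Columns were assigned by reading A as attached and S as suspended, since no header spells these out. The deposited p-values go no lower than 5e-05. Each start was raised by 1 base to count from 1.

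Calls are the authors' q below 0.05. No new test across genes was run, because only 2 values per gene are given. Approximate intervals of uncalled genes divide the log2 fold change by the normal quantile of p. The deposited test scores of the genes given intervals are smaller in size than these quantiles, so the intervals may be too narrow. Related genes were matched by symbol or RefSeq synonym, and rows naming several genes were left out. Members and lists were chosen with earlier results of these data known. Named genes are the 10 members, their isoenzymes, 6 stress response genes and up to 4 called genes per list with the largest change and at least 5 FPKM; some of these are not reported here. Overlaps with annotated genes (GENCODE M21) were checked for members and isoenzymes only. The calculations were tested on simulated data. Calculations used pandas 2.3.3, SciPy 1.17.1 and NumPy 2.4.6 under Python 3.11.15, and figures matplotlib 3.10.9.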

Additional observations from a re-analysis of the deposited data

How the results depend on the processing

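The count of 8 enzymes called lower became 4 when a 2-fold change was also required. It stayed 8 with q below 0.01, recomputed Benjamini-Hochberg adjustment and rescaling by the median, but all 8 hold the lowest p in the deposited table and rescaling leaves q as it is, so these alternatives could not have changed it. With that requirement the folate list had 3 genes lower, serine and glycine use 0 lower and 0 higher, purine synthesis 1 lower and 0 higher, methionine and polyamine genes 4 lower and 0 higher, proline and arginine 1 higher beside 2 lower, transporters 1 lower beside 4 higher, tRNA synthetases 1 lower and the stress response 2 lower beside 5 higher. With q below 0.01 the higher calls became 0 for serine and glycine use and 1 for proline and arginine, and the tRNA synthetases had 4 lower instead of 6. The log2 fold change of Aldh1l2 turned to 0.085 (rescaled by the median of genes with at least 1 FPKM, -0.11) and to 0.074 (rescaled by upper quartiles); the other 9 enzymes kept their sign under both rescalings and under pseudocounts of 1 and 0.1. The median of the 10 lay between -0.76 and -0.65 under these alternatives. The narrower element was found in 1 of 9 genes. No paired analysis was possible because the deposited columns hold 1 value per condition, and for the same reason leaving out a replicate, another test and another normalization of libraries were not run. The unknown depth limits what can be said of Aldh1l2, the least abundant enzyme.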

Other observations

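Some genes outside the naming rule, chosen after their values were seen, add detail on the same pathways. Tyms, which uses methylene folate to make thymidylate, went from 21.9 to 11.3 FPKM (q = 0.000185) per the authors' deposited table. Asrgl1, which breaks down asparagine and fell beside Asns, went from 4.37 to 1.55 FPKM (q = 0.000185) per the authors' deposited table. Glul, glutamine synthetase, was listed at 16.0 and 46.3 FPKM (log2 fold change 1.53) per the authors' deposited table but was not called (q = 0.0914). Slc19a1, the reduced folate carrier, was listed at 6.62 and 3.86 FPKM (log2 fold change -0.78, q = 0.543) per the authors' deposited table, and its approximate 95% interval runs from -2.71 to 1.15.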
